A study of Mus musculus with 6 samples.

Results

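The genes described here encode the subunits of the proteasome, measured by RNA sequencing in gastrocnemius muscle of 6 mice. They are all genes whose symbol begins with Psma, Psmb, Psmc or Psmd followed by a number alone, and rows with no counts in any library were to be dropped. The rule found 39 genes among 23282 rows, none had to be dropped, and 38 passed the filter on low counts and were tested. All 6 mice were wild-type males of the C57/BL6J strain, 20 months old. The inotodiol group (3 mice) was given inotodiol, a lanostane triterpenoid, by mouth at 0.35 mg/kg each day for 10 weeks, and the vehicle group (3 mice) received the carrier alone, a mixture of polyethylene glycol, Tween 80 and saline. The question put here is how the transcripts of this complex compare between treated and untreated mice.

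The proteasome is the protease that degrades most ubiquitin-tagged proteins in the cytosol and nucleus. Its barrel-shaped core particle is built of stacked rings of alpha subunits (Psma genes), which form the gate, and beta subunits (Psmb genes), some of which carry the active sites. A regulatory particle caps the core: a ring of ATPases (Psmc genes) unfolds and threads the substrate, and the non-ATPase subunits (Psmd genes) bind ubiquitin, remove it and hold the particle together. Interferon gamma and immune cells bring in an alternative set of active-site subunits, Psmb8, Psmb9 and Psmb10, which form the immunoproteasome and favour peptides for antigen presentation. In skeletal muscle the ubiquitin-proteasome system breaks down contractile proteins during wasting.

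The 39 genes comprised 7 of the alpha ring, 7 of the constitutive beta ring, 3 of the immunoproteasome, 6 of the ATPase ring and 14 of the non-ATPase group, besides Psma8 and Psmb11, whose products are known from testis and thymus. Libraries held 8961893 to 9953764 counts, and subunit genes took 50153 to 56761 counts per library. Values are TMM-scaled CPM, counts relative to the effective size of the library, unless called unscaled, and a log2 fold change is inotodiol over vehicle, so that 1 stands for a doubling. The 8 skeletal muscle markers, among them Acta1, Ckm and Myh4, summed to between 161480 and 177876 unscaled CPM in every library. Markers of other cells differed more between single mice. Leukocyte markers (15 of 15 in the files) summed to 280, 160 and 452 unscaled CPM in vehicle 1 to 3 and to 596, 88.0 and 112 in inotodiol 1 to 3. Hepatocyte markers reached 559 and exocrine pancreas markers 52.5 unscaled CPM in inotodiol 1, against at most 74.0 and 1.25 in the vehicle libraries. The hepatocyte sums did not overlap between the groups (14.6 to 74.0 in vehicle and 89.8 to 559 with inotodiol), and the part of such RNA in the values below was not tested. Inotodiol 1 stood apart from the other libraries by the pancreas markers, and results that rest on it are also given without it.

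No proteasome subunit gene was called different between treated and control mice. The test was the quasi-likelihood test of edgeR, with a threshold of 0.05 on the adjusted p, and 0 of the 38 genes passed, as did 0 of all 11700 genes tested (0%). DESeq2 and limma-voom also called 0 subunit genes. At an unadjusted p under 0.05 there was 1 subunit gene, Psmb10, which was higher, or 2.63% of the 38, against 4.87% of all genes (2.67% higher and 2.21% lower). The 3 inotodiol values lay wholly on 1 side of the vehicle values for 3 subunit genes (7.89%), against 10.4% of all genes. Psmb5 was the 1 that was higher, where 5.15% of all genes were, and Psma2 and Psma5 were lower, where 5.26% of all genes were. The median log2 fold change was -0.011 over the 38 genes, with 17 above 0 and 21 below, and -0.00073 over all genes, of which 49.9% were above 0. When libraries were scaled by their totals alone, the all-gene median was -0.12 and the subunit median -0.13, with 9 of 38 above 0. The split of genes at an unadjusted p under 0.05 moved with it, from 312 higher and 258 lower to 138 higher and 588 lower, so directions below are relative to the bulk of genes. The ribosomal RNA gene Rn45s took 3.97%, 6.82% and 4.38% of counts in vehicle 1 to 3. In inotodiol 1 to 3 it took 10.2%, 9.56% and 4.33%. TMM factors were 1.06, 1.00 and 1.06 in vehicle and 0.928, 0.930 and 1.02 with inotodiol. The part of Rn45s in this shift was not tested.

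The 34 constitutive subunits, which leave out Psmb8, Psmb9, Psmb10, Psma8 and Psmb11, had narrow intervals. Their log2 fold changes ran from -0.30 for Psma5 to 0.19 for Psmd10, and the 95% interval lay between -1 and 1, which excludes a doubling or halving, for 34 of 34. The same held for 7047 of the 11700 genes tested. No constitutive subunit had an interval reaching below -0.69 or above 0.79.

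**Figure D1:**
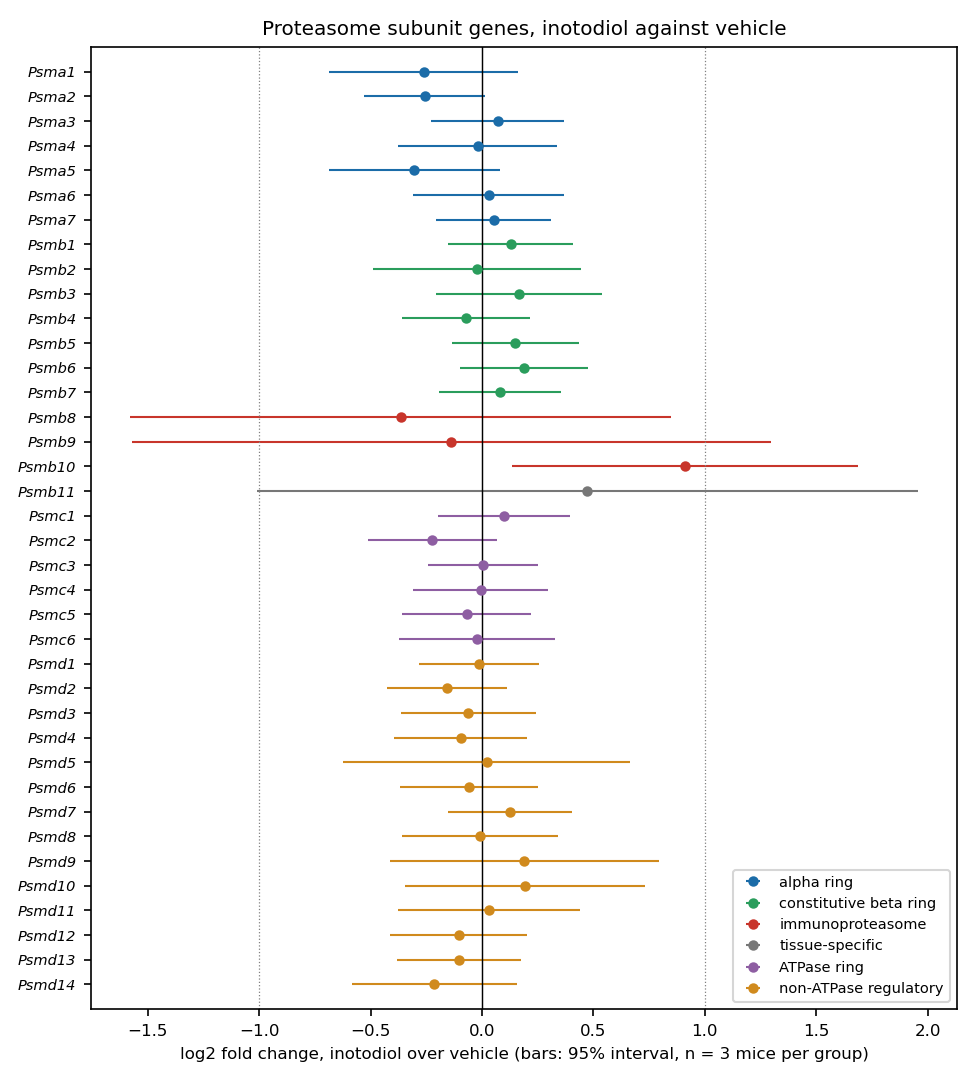
Log2 fold change of each of the 38 subunit genes tested (x axis, inotodiol over vehicle) with its 95% interval, 3 mice per group; colours mark the part of the proteasome and dotted lines a doubling or halving. Constitutive subunits lie between -0.30 and 0.19, while the intervals of Psmb8, Psmb9, Psmb10 and Psmb11 pass beyond the dotted lines.

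Among the alpha subunits, which form the outer rings and the gate, 3 of 7 were above 0 and 4 below, with a median log2 fold change of -0.020. Psma2 had 183, 171 and 169 CPM in vehicle 1 to 3 and 142, 155 and 141 CPM in inotodiol 1 to 3. All 3 inotodiol values of Psma2 lay below all 3 vehicle values, and its log2 fold change was -0.26 ± 0.13 (SE, 95% interval -0.53 to 0.02, edgeR adjusted p 0.96). Psma5 had 31.9, 34.5 and 30.2 CPM in vehicle 1 to 3 and 25.3, 29.3 and 23.7 CPM in inotodiol 1 to 3. Here too the groups did not overlap, at a log2 fold change of -0.30 ± 0.18 (edgeR adjusted p 0.96). Psma1 stood at -0.26 ± 0.20 with overlapping groups. Psma4 had the smallest difference, with 130 ± 21.9 CPM in vehicle and 128 ± 20.6 CPM in treated mice (SD, n = 3). Psma3, Psma6 and Psma7 had log2 fold changes of 0.07, 0.03 and 0.05.

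Among the constitutive beta subunits more genes lay above 0 than below, though no gene was called. Of these 7 genes, 5 lay above 0, with a median log2 fold change of 0.13, or 1.09-fold. With library totals 4 of 7 were above 0, with a median of 0.02, and 0 of the 7 alpha genes. Psmb1, a structural beta subunit, had 200 ± 6.22 CPM in vehicle and 219 ± 25.6 CPM in treated mice (SD, n = 3), for a log2 difference of 0.13 ± 0.13 (edgeR adjusted p 0.97). Psmb3 stood at 0.17 ± 0.17, Psmb4 at -0.07 ± 0.13 and Psmb2 at -0.02 ± 0.22. The mean level of the beta ring minus that of the alpha ring, each gene first centred on its mean log2 CPM, was -0.15, -0.069 and -0.067 in vehicle 1 to 3. In inotodiol 1 to 3 this difference was 0.15, -0.034 and 0.17. The groups did not overlap, by a gap between vehicle 3 and inotodiol 2 that was smaller than the spread within either group, and the size of the shift was 0.19 on the log2 scale. Without inotodiol 1 it was 0.16. The difference is taken within each library, where a scaling factor cancels. It includes Psma2, Psma5 and Psmb5, whose own groups did not overlap, so it is not a separate result. How often differences between other sets of genes part the groups was not counted.

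The 3 active sites of the constitutive core are carried by Psmb6 (caspase-like activity), Psmb7 (trypsin-like activity) and Psmb5 (chymotrypsin-like activity, the target of the drug bortezomib). Psmb5 (chromosome 14, 54614119 to 54618022, mm10) had 103, 104 and 107 CPM in vehicle 1 to 3 and 123, 118 and 109 CPM in inotodiol 1 to 3. Every inotodiol value of Psmb5 was above every vehicle value, and the log2 fold change was 0.15 ± 0.13 (95% interval -0.13 to 0.43, edgeR adjusted p 0.96). Psmb6 (chromosome 11, 70525367 to 70527858) had 145, 140 and 154 CPM in vehicle and 165, 150 and 184 CPM in treated mice in the same order. Its groups overlapped at inotodiol 2 and vehicle 3, and the log2 fold change was 0.19 ± 0.13 (edgeR adjusted p 0.96). Psmb7 (chromosome 2, 38588036 to 38644087) had 312, 277 and 294 CPM in vehicle and 289, 294 and 351 CPM in treated mice. Inotodiol 3 alone lay above the vehicle range, and the log2 fold change was 0.08 ± 0.13 (edgeR adjusted p 0.99).

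The immunoproteasome genes replace these 3 subunits one for one in the core, Psmb8 for Psmb5, Psmb9 for Psmb6 and Psmb10 for Psmb7. Psmb8 (chromosome 17, 34197721 to 34201454) had 17.6, 4.32 and 11.7 CPM in vehicle 1 to 3 and 18.0, 3.99 and 4.10 CPM in inotodiol 1 to 3. Inotodiol 1, vehicle 1 and vehicle 3 were high and the other 3 libraries low, so that each group held both high and low mice. The log2 fold change was -0.37 ± 0.56, with a 95% interval from -1.58 to 0.85 (edgeR adjusted p 0.99), and -1.47 without inotodiol 1. Psmb9 (chromosome 17, 34181987 to 34187764) had 41, 12 and 36 counts in vehicle 1 to 3 and 49, 18 and 10 counts in inotodiol 1 to 3. Its 3 highest libraries were those of Psmb8, in the same order, and Psmb8 had 2 to 4.07 times the counts of Psmb9 in every library. The log2 difference for Psmb9 was -0.14 ± 0.67 (95% interval -1.57 to 1.30), which was -1.01 without inotodiol 1 and 0.26 without inotodiol 3.

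Psmb10 (chromosome 8, 105935735 to 105938444) differed from both in its order of libraries. It had 13.1, 7.02 and 10.5 CPM in vehicle 1 to 3 and 30.4, 9.88 and 17.3 CPM in inotodiol 1 to 3. Inotodiol 1 and 3 lay above all vehicle libraries and inotodiol 2 lay below vehicle 1 and 3. The log2 fold change was 0.91 ± 0.36 (95% interval 0.13 to 1.69), with an unadjusted p of 0.025 and an adjusted p of 0.96 in edgeR. It was 0.42 without inotodiol 1 and between 0.71 and 1.22 with any other library left out. Psmb10 had 0.743 to 1.63 times the counts of Psmb8 in the vehicle libraries and 1.69 to 4.22 times in the inotodiol libraries. These ranges nearly met, at 1.63 in vehicle 2 and 1.69 in inotodiol 1. How often other pairs of genes part the groups in this way was not counted.

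**Figure D2:**
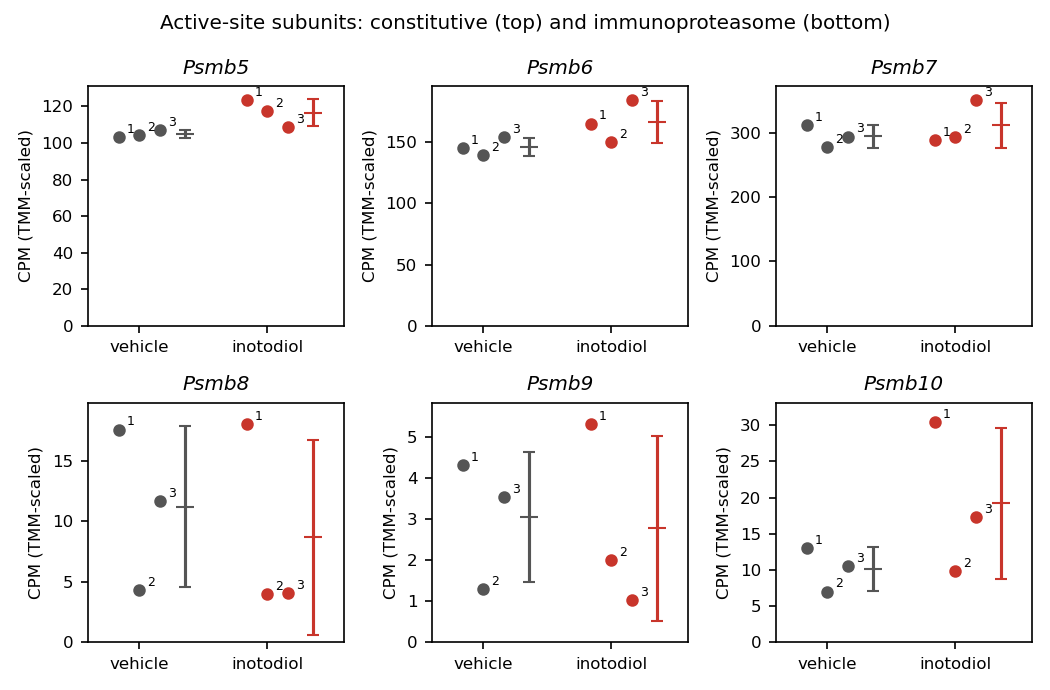
TMM-scaled CPM (y axis, from 0) of the constitutive active-site genes Psmb5, Psmb6 and Psmb7 (top) and of the immunoproteasome genes Psmb8, Psmb9 and Psmb10 (bottom); numbered points are mice, and bars give the mean ± SD of 3 mice. Psmb5 runs from 103 to 123 CPM over all mice, whereas Psmb8 runs from 3.99 to 18.0 CPM with high and low mice in both groups.

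Sequence before the RefSeq start is shown for Psmb5, Psmb6 and Psmb8, the active-site genes that held a searched response element. Psmb9 held a CCAAT match alone and is not shown. A sequence window was at hand for 4 of the 7 constitutive beta genes and for the 3 immunoproteasome genes. A gene without a named match was therefore not always searched. The stretches are from RefSeq (GRCm38.p6), at chr14:54618023-54618245 (minus strand) for Psmb5 and chr11:70525107-70525356 (plus strand) for Psmb6. Capitals mark matches to TGACNNNGC, the core of the antioxidant response element, which is bound by the factors of Nfe2l1 and Nfe2l2. The short stretch of Psmb8 (chr17:34198089-34198115, plus strand) carries in capitals a match to TTCNNNGAA, the interferon gamma-activated site. It lies before the RefSeq start but inside the GENCODE span of Psmb8 given above, in an exon of another annotated transcript.
Psmb5: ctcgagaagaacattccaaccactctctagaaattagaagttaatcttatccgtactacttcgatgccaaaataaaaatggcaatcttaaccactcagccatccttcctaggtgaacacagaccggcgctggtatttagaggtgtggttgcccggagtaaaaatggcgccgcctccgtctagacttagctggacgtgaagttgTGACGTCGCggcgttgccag
Psmb6: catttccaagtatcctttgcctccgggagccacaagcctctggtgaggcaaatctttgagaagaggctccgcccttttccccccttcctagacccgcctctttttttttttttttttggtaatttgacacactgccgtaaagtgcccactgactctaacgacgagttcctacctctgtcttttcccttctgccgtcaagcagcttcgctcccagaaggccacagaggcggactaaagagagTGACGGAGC
Psmb8: cctccgctgTTCCCAGAAgatgccccc
In the 250 bases before the start, searched on both strands, TGACNNNGC was found in 5 of the 32 subunit genes with a window in the table (Psmb5, Psmb6, Psmc6, Psmd9 and Psmd12) and in 11.5% of all 27025 genes. TTCNNNGAA was found in 1 of 32, Psmb8, and in 8.13% of all genes. The interferon-stimulated response element was found in Psmb3, Psmd4 and Psmd9 and in 3.46% of all genes. CCAAT, the letters bound by NF-Y, was found in 13 of 32 and in 37.5% of all genes, among them 5 of the 7 alpha subunits. A match describes these letters and not a bound site. The antioxidant element occurred in genes whose log2 fold changes ran from -0.11 for Psmd12 to 0.19 for Psmb6 and Psmd9.

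The counts of Psmb8, Psmb9 and Psmb10 together were set against the sum of these and Psmb5, Psmb6 and Psmb7 in each library. These are shares of counts, not corrected for transcript length, and are read only across libraries. The share was 5.88%, 2.37% and 4.43% in vehicle 1 to 3 and 8.51%, 2.75% and 3.37% in inotodiol 1 to 3. Exact 95% binomial intervals, which cover counting error only, were 5.28% to 6.52% for vehicle 1, 1.96% to 2.83% for vehicle 2 and 7.80% to 9.26% for inotodiol 1. Mice within a group thus differed by more than counting error. The group means, 4.22% ± 1.76 in vehicle and 4.88% ± 3.16 with inotodiol (SD, n = 3), differed by less than the spread within either group. The order of the means turned without inotodiol 1, where the other 2 inotodiol mice had a mean of 3.06%. It also turned when Psmb10 and Psmb7 were left out of the share (5.29% ± 2.93 in vehicle and 3.80% ± 3.20 with inotodiol) and for Psmb8 with Psmb5 alone (9.45% ± 5.30 and 6.56% ± 5.37). Without inotodiol 1 the inotodiol means of these shares were 1.95% and 3.46%, and the remaining inotodiol mice lay below all vehicle mice in both. The nearest values were 2.19% (inotodiol 2) and 2.25% (vehicle 2) for the first share. For the second they were 3.64% (inotodiol 3) and 3.97% (vehicle 2). The binomial intervals of the nearest values overlapped, at 1.65% to 2.85% and 1.68% to 2.94% for the first share. For the second they were 2.61% to 4.92% and 2.85% to 5.37%. How often 2 mice lie apart from 3 in this way for other genes was not counted.

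**Figure D3:**
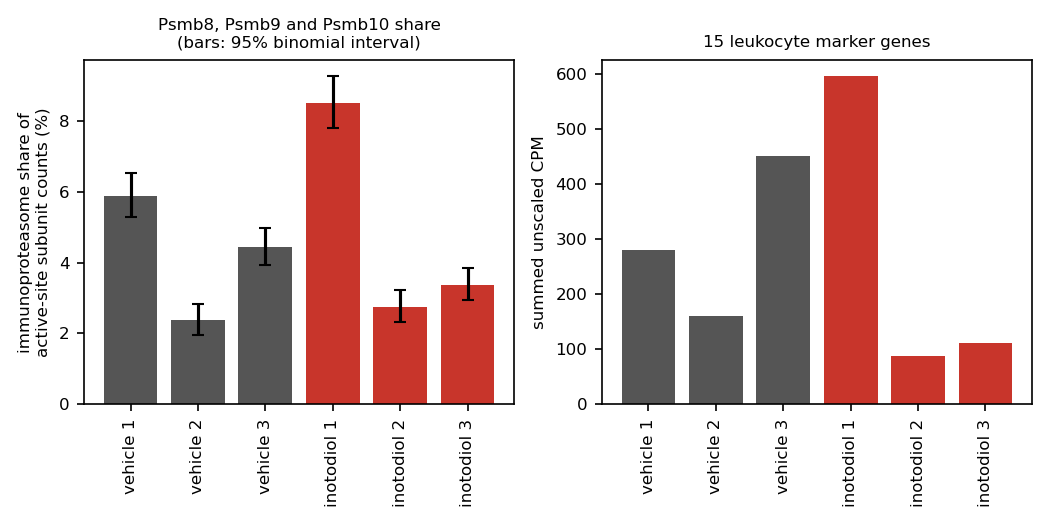
Left, share of Psmb8, Psmb9 and Psmb10 in the counts of the 6 active-site genes (y axis, percent, bars with exact 95% binomial intervals); right, summed unscaled CPM of 15 leukocyte marker genes in the same libraries. Inotodiol 1, vehicle 1 and vehicle 3 are the 3 highest libraries in both panels.

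The libraries with high Psmb8 and Psmb9 were also those with the highest summed leukocyte markers. In the order of Psmb8, the marker sums were 596 (inotodiol 1), 280 (vehicle 1) and 452 unscaled CPM (vehicle 3) in the 3 high libraries. In the 3 low ones they were 160 (vehicle 2), 112 (inotodiol 3) and 88.0 unscaled CPM (inotodiol 2). The MHC class II genes Cd74, H2-Aa and H2-Ab1 made up most of this sum, with 214, 94.6 and 263 unscaled CPM in vehicle 1 to 3 and 455, 50.8 and 63.1 in inotodiol 1 to 3. The other 12 markers summed to 66.1, 65.0 and 188 unscaled CPM in vehicle and 141, 37.2 and 48.6 with inotodiol. By this sum, of which Csf1r was the largest part in both, vehicle 1 was close to vehicle 2. The macrophage markers Cd68 and Csf1r were lower in vehicle 1 (2.01 and 24.0 unscaled CPM) than in vehicle 2 (6.71 and 32.9). Tyrobp was also lower, with 8 counts in vehicle 1 and 19 in vehicle 2. Adgre1, Lyz2 and Laptm5 went the other way, with 23, 66 and 100 counts in vehicle 1 and 19, 51 and 78 in vehicle 2. The myeloid markers thus did not place vehicle 1 and vehicle 2 in a single order. Of the other defining markers, Ptprc, which encodes the pan-leukocyte antigen CD45, had 49, 42 and 113 counts in vehicle 1 to 3 and 158, 38 and 15 counts in inotodiol 1 to 3. Cd52 had 82, 25 and 137 counts in vehicle 1 to 3 and 161, 13 and 18 in inotodiol 1 to 3. Its 3 highest libraries were thus those of Psmb8. Cd3e of T cells had 22, 0 and 7 counts in vehicle and 12, 2 and 0 with inotodiol, and Ms4a1 of B cells at most 2 counts in any library. Cd8a and Cd79a had at most 3 and 4 counts, both in vehicle 1. The part of these cells in the immunoproteasome values was not tested, and in whole muscle fewer cells of a type and less RNA per cell cannot be told apart. Psmb10 was also second highest in inotodiol 3, where the marker sum was 112 unscaled CPM.

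The interferon gamma and antigen presentation genes showed no common direction between the groups. Of 14 tested, 8 were above 0 and 6 below, with a median log2 fold change of 0.07. With library totals, and with the replicate block, 6 were above 0 and 8 below, with medians of -0.07 and -0.03. Among these genes 0 passed edgeR's adjusted threshold. Their mean centred log2 CPM was 0.03, -0.32 and 0.34 in vehicle 1 to 3. In inotodiol 1 to 3 it was 0.66, -0.41 and -0.30. As a list they were thus highest in inotodiol 1, vehicle 3 and vehicle 1, the libraries that were also high for Psmb8 and Psmb9. Tap1, a peptide transporter whose annotated exons share 212 bases with those of Psmb9 on the other strand, had 4.42, 1.62 and 8.64 CPM in vehicle 1 to 3 and 24.4, 2.11 and 1.43 CPM in inotodiol 1 to 3. Its inotodiol 1 value was the highest, as for Psmb8 and Psmb9, but vehicle 3 lay above vehicle 1. The log2 fold change of Tap1 was 0.92 ± 0.83, and -1.47 without inotodiol 1. Without strand-specific counting, reads of the shared bases of Tap1 and Psmb9 cannot be told apart. Tap2, the partner of Tap1, had 3.48, 3.67 and 7.56 CPM in vehicle and 2.60, 2.00 and 2.15 CPM in treated mice. The groups of Tap2 did not overlap, at -1.12 ± 0.49 (unadjusted p 0.039, edgeR adjusted p 0.96).

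The ATPase ring of the regulatory particle was close to even between the groups with TMM scaling. Of its 6 genes, 2 were above 0 and 4 below, with a median log2 fold change of -0.014 and no gene whose groups parted. With library totals 0 of 6 were above 0 and the median was -0.13, near the all-gene median of -0.12. Psmc2 had 268, 225 and 207 CPM in vehicle 1 to 3 and 188, 210 and 202 CPM in inotodiol 1 to 3, a log2 fold change of -0.22 ± 0.13 (edgeR adjusted p 0.96). Vehicle 1 was the high library, and without it the value was -0.11. Psmc1 stood at 0.10 ± 0.14, Psmc5 at -0.07 ± 0.14 and Psmc4 at -0.01 ± 0.14. Psmc3 had between 293 and 306 CPM in all 6 libraries, a within-group SD of 0.025 on the log2 scale that was the smallest of the 38 genes. As a group the ATPase genes were highest in vehicle 1, where 6 of 6 were above their own mean with either scaling. They were lowest in vehicle 3 with TMM scaling (1 of 6) and in inotodiol 1 with library totals (1 of 6).

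Of the 14 non-ATPase genes, 5 were above 0 and 9 below (3 and 11 with library totals), with a median log2 fold change of -0.035. Psmd2, a large scaffold subunit of the base, had 294, 296 and 264 CPM in vehicle 1 to 3 and 261, 272 and 233 CPM in inotodiol 1 to 3. These groups overlapped, and the log2 fold change was -0.16 ± 0.12 (edgeR adjusted p 0.96). Psmd14, the deubiquitinase of the lid, had 68.8, 51.0 and 64.3 CPM in vehicle and 45.6, 60.2 and 52.9 CPM in treated mice, which gave a log2 difference of -0.21 ± 0.17. Psmd7, its partner in the lid, stood at 0.13 ± 0.13, with inotodiol 1 the highest library at 416 CPM. Psmd4, a ubiquitin receptor, had 695 CPM on average over all libraries and a log2 fold change of -0.10 ± 0.14, and Psmd8 of the lid stood at -0.01 ± 0.16. The other scaffold and lid subunits Psmd1, Psmd3, Psmd6, Psmd11, Psmd12 and Psmd13 lay between -0.11 (Psmd12) and 0.03 (Psmd11).

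Psmd5, Psmd9 and Psmd10 carry subunit names but act as chaperones in the assembly of the base. All 3 were above 0 (2 of 3 with library totals), at 0.02 ± 0.30, 0.19 ± 0.28 and 0.19 ± 0.25, against 2 of the other 11 non-ATPase genes. Their standard errors exceeded these differences, and they had 73 to 181 counts per library. Psmd5 varied most among the constitutive subunits, with 148, 159 and 105 counts in vehicle 1 to 3 and 88, 181 and 137 in inotodiol 1 to 3.

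**Figure D4:**
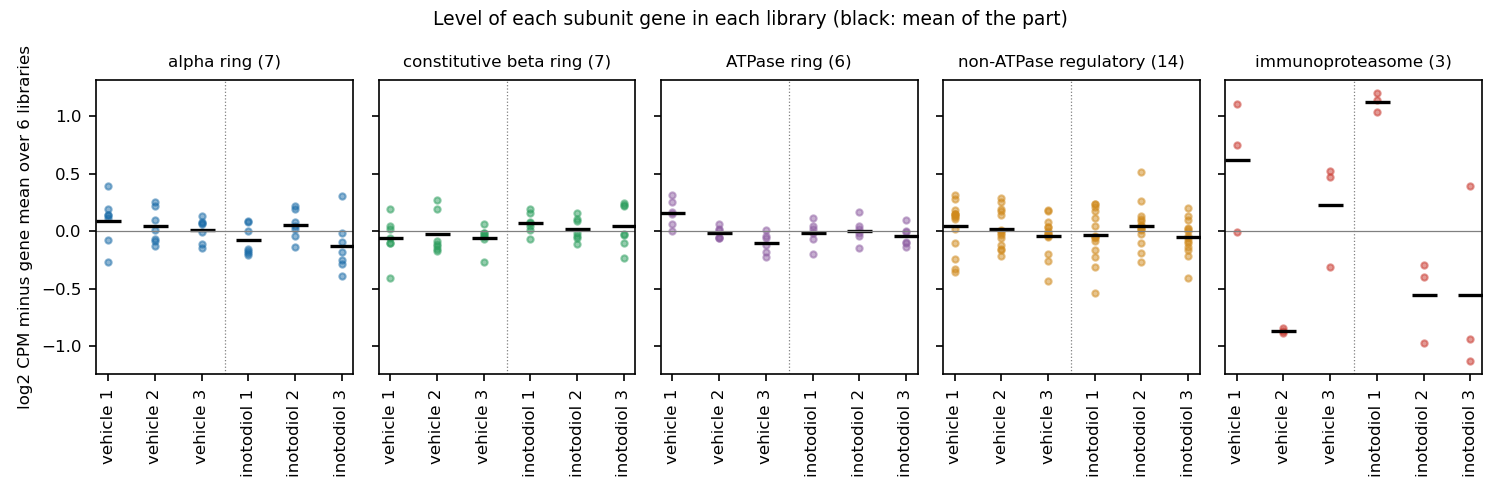
Log2 CPM of each subunit gene minus its mean over the 6 libraries (y axis), by library and by part; points are genes, with their number in brackets, and black dashes the mean of the part. The means of the 4 constitutive parts stay between -0.13 and 0.16, while those of the immunoproteasome run from -0.86 in vehicle 2 to 1.13 in inotodiol 1.

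The core as a whole stayed close to the non-ATPase genes within each library. The mean centred level of the 14 constitutive core genes minus that of the 14 non-ATPase genes lay between -0.026 and 0.029 on the log2 scale in all 6 libraries. For the core minus the ATPase ring it lay between -0.0026 and 0.032 in the inotodiol libraries and between -0.14 and 0.08 in the vehicle libraries, with the low value in vehicle 1. The ATPase ring minus the non-ATPase genes was 0.12 in vehicle 1 and between -0.063 and 0.017 in the other libraries. None of these 3 differences parted the groups, and the beta and alpha rings within the core differed by up to 0.17, as given above.

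Constitutive subunit genes varied little between mice of a group. The within-group SD of log2 CPM had a median of 0.14 over the 34 genes, against 0.32 over all genes tested. The 3933 genes with a mean between 22.7 and 303 CPM, the range that holds the middle of the constitutive subunits, had a median of 0.20, and 25 of the 34 subunits lay below that. The ratio of the highest to the lowest library was 1.34 at the median and stayed under 1.5 for 28 of 34 and under 2 for 33, with 2.10 for Psmd5. For Psmb8, Psmb9 and Psmb10 this ratio was 4.51, 5.19 and 4.33, and the within-group SDs were 1.12, 0.98 and 0.65. These genes had lower counts, and spread widens at low counts. Among genes within 0.5 of the same mean log2 CPM, the median SD was 0.38 for the level of Psmb8, 0.60 for Psmb9 and 0.31 for Psmb10, and 98.6%, 87.9% and 96.5% of those genes had a smaller SD than the immunoproteasome gene.

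**Figure D5:**
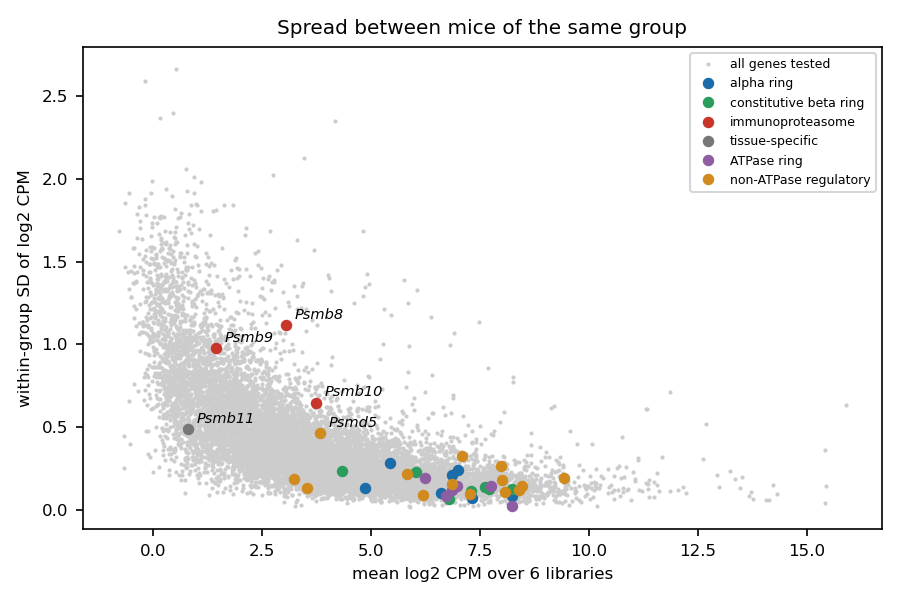
Within-group SD of log2 CPM (y axis) against mean log2 CPM over the 6 libraries (x axis) for all 11700 genes tested (grey) and the subunit genes (coloured by part). The constitutive subunits have a median SD of 0.14, and Psmb8 (1.12) and Psmb10 (0.65) lie above most genes of their level.

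Psma8 had 1 count in vehicle 3 and none in the other libraries and was not tested. Psmb11 had 14, 12 and 13 counts in vehicle 1 to 3 and 22, 21 and 9 in inotodiol 1 to 3, a log2 fold change of 0.47 ± 0.69 (edgeR adjusted p 0.99).

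Genes that act with the proteasome were taken from 8 lists, of which 53 genes were tested. None was called by edgeR, DESeq2 or limma-voom. At an unadjusted p under 0.05 edgeR had 2 genes, Psme1 and Tap2, and 5 genes (9.43%) had groups that did not overlap, against 10.4% of all genes. With library totals the number above 0 was 1 of 5 for assembly chaperones, 1 of 9 for accessory genes, 2 of 5 for shuttle receptors, 2 of 6 for transcription regulators and 0 of 4 for the p97 genes. Among the activators and the inhibitor, 4 of 5 were above 0 (1 of 5 with library totals), with a median log2 fold change of 0.11. Psme1, a subunit of the interferon-inducible activator PA28, had 23.9, 21.4 and 28.0 CPM in vehicle 1 to 3 and 47.9, 27.5 and 28.3 CPM in inotodiol 1 to 3. Inotodiol 1 was well above the rest, and the log2 fold change of 0.50 ± 0.23 (unadjusted p 0.049, edgeR adjusted p 0.96) was 0.19 without it. Psmf1, the inhibitor PI31, stood at 0.11 ± 0.23.

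Assembly chaperones of the core had a median of -0.12 over 5 genes. Psmg2 had 22.7, 24.5 and 27.0 CPM in vehicle 1 to 3 and 22.2, 17.3 and 16.6 CPM in inotodiol 1 to 3, with groups that did not overlap and a log2 fold change of -0.40 ± 0.20 (edgeR adjusted p 0.96). Pomp, the maturation factor of the core, also parted the groups, at 336, 324 and 323 CPM in vehicle and 288, 310 and 307 CPM in treated mice, and was singled out after its values were seen. Psmg4 stood at 0.44 ± 0.39. Of 9 accessory genes tested, 4 were above 0 and the median was -0.0091, with Zfand5, a ubiquitin-binding activator of the proteasome, at -0.22 ± 0.13 and without overlap, and Zfand2a at 0.68 ± 0.48.

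Shuttle receptors, which carry ubiquitinated proteins to the proteasome, had a median of 0.08 over 5 genes. Ubqln4 stood at 0.25 ± 0.16 without overlap. Of 6 regulators of subunit transcription tested, 3 were above 0 with a median of 0.01, and Nfe2l1, which encodes the factor that raises subunit transcription when the proteasome is inhibited, had a log2 fold change of -0.06 ± 0.15. Nfyb and Nfyc, subunits of NF-Y, stood at 0.22 ± 0.17 and 0.19 ± 0.21.

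The ubiquitin genes and E1 enzymes tested were all 5 above 0 with TMM scaling (3 of 5 with library totals). Ubb, a polyubiquitin gene that cells use generally, was listed at 0 in all 6 libraries, which is not read as a lack of expression. The p97 segregase genes had 1 of 4 above 0 and a median of -0.11, with Nploc4 at -0.15 ± 0.16 and Ufd1l at -0.14 ± 0.20.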

How the data were processed

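Libraries were made from total RNA of gastrocnemius muscle with a Lexogen Quant-Seq kit, per the labels' protocols. The authors deposited 1 table of whole-number read counts per gene symbol for each mouse. Bowtie2, bedtools and the mm10 genome are named in the submitters' processing notes; no version, annotation, strand setting or rule for reads with several matches is stated there. Of the 39 subunit genes, 8 have a pseudogene transcript in GENCODE M21 that matches at least 50% of their length at 90% identity or more (Psma4, Psma5, Psmb3, Psmb5, Psmb6, Psmc1, Psmd2 and Psmd14), and 10 share exon bases with a gene on the opposite strand, among them Psmb9 with Tap1, Psmb7 with Nek6 and Psmd13 with Sirt3. Counts of these genes are uncertain to that extent.

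Genes were kept with edgeR's filterByExpr (minimum count 10, minimum total 15), which left 11700 of 23282 rows. The two-sided quasi-likelihood test of edgeR 4.0.16, run in R 4.3.3 on TMM-scaled counts, had treatment group as its sole term, and p-values were adjusted over all genes by Benjamini-Hochberg, with a threshold of 0.05. Intervals are 95% from the moderated quasi-dispersion. Log2 CPM used a prior count of 2. The common biological coefficient of variation was 27.2%. The test was also run on simulated data for this comparison (11388 genes, 50 altered per size, each of at least 5 CPM). It found 14% of 1.5-fold, 58% of 2-fold, 96% of 4-fold and 100% of 8-fold changes, with 13 false calls. All sizes were altered together there, which eases the adjusted threshold, whereas no gene passed it in the measured data. These rates therefore do not carry over to a single changed gene. Each library was left out in turn. Scaling by RLE, by the upper quartile and by library totals was tried, as were no filter, a floor of 1 CPM in every library, limma-voom (limma 3.58.1), DESeq2 1.42.0, robust edgeR, a block for replicate number, a threshold of 0.10 and a prior count of 0.5. Genes named in full were the 6 active-site subunits, the 3 with the smallest p and the 1 with the smallest difference in each part, and the 2 with the smallest p in each related list, of which some are not reported here; Nfe2l1, Tap1, Ptprc, Cd3e and Ms4a1, and the other subunits given a value, were named besides. Members, lists and rules were chosen with earlier results of these data known. Gene spans are from GENCODE M21 (GRCm38, the assembly of mm10) and upstream sequence from RefSeq (GRCm38.p6).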

Additional observations from a re-analysis of the deposited data

How the results depend on the processing

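No subunit gene and no related gene passed an adjusted p of 0.05 under any alternative run. Over all genes the count called was 0, and 95 with no filter, 1 with DESeq2 and 25 without inotodiol replicate 3; the lowest and highest with a library left out were 0 and 25. With library totals the all-gene median went from -0.00073 to -0.12 and the subunit median to -0.13; 9 of 38 were above 0 and 4 had an unadjusted p under 0.05, 1 higher and 3 lower. With a library left out the immunoproteasome median ran from -1.01 (without inotodiol replicate 1) to 0.26. With no filter the median of Psma8 and Psmb11 was -0.68. Without Psmb10 and Psmb7 the immunoproteasome share was 8.11%, 2.25% and 5.51% in vehicle 1 to 3 and 7.48%, 2.19% and 1.72% in inotodiol 1 to 3, which turned the order of the group means. The means and the ring difference without inotodiol replicate 1, the split leukocyte sum and the values of Tap1 were added after the data were seen. Of 509 gene values recomputed, 21 changed sign, in 10 genes, none of them called. With library totals these were Psmb7 (-0.033), Psmc1 (-0.020) and Psmf1 (-0.0082), and with limma-voom Psmd8 (0.00035). With a library left out the ranges were -1.47 to 0.11 for Psmb8, -1.01 to 0.26 for Psmb9, -0.015 to 0.13 for Psmb7, -0.15 to 0.10 for Psma4, -0.15 to 0.13 for Psmb2, -0.066 to 0.085 for Psmc4, -0.17 to 0.085 for Psmd8 and -1.47 to 1.62 for Tap1. The cause of these changes was not tested. Correlations of deviations between same-numbered samples were -0.081, 0.11 and 0.022, and those between other samples of the 2 groups ran from -0.13 to 0.097. With 3 mice per group such values cannot decide whether the replicate numbers pair the samples. With the replicate block 0 genes were called and the subunit median was -0.0072. Psmb9 and Psmb11 had 9 to 49 counts per library, which limits what can be seen for them, and 3 mice per group limit the rest.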

Other observations

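Several subunit genes start close to a gene on the other strand in GENCODE M21. Psma2 and Mrpl32, a mitochondrial ribosomal protein gene, start 75 bases apart. Mrpl32 had 27.6, 22.7 and 25.6 CPM in vehicle 1 to 3 and 17.0, 25.2 and 23.9 CPM in inotodiol 1 to 3, a log2 fold change of -0.20 ± 0.21, beside -0.26 ± 0.13 for Psma2. Psmc2 and Dnajc2, a chaperone gene, start 32 bases apart and had log2 fold changes of -0.22 ± 0.13 and 0.25 ± 0.17. Psmc5 and Ftsj3 start 75 bases apart, with -0.07 ± 0.14 and -0.15 ± 0.17. Psma7 and Ss18l1, Psmb1 and Tbp, and Psmd10 and Atg4a are arranged in the same way, and the second gene of each pair had at most 3.55 CPM in any library. None of these genes was called in edgeR's test.

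Sirt3, a mitochondrial deacetylase gene, shares 342 annotated exon bases with Psmd13 on the other strand. Sirt3 had 3.16, 4.32 and 2.46 CPM in vehicle 1 to 3 and 6.29, 4.88 and 5.53 CPM in inotodiol 1 to 3. Its groups did not overlap, and the log2 fold change was 0.75 ± 0.41 (edgeR unadjusted p 0.088, adjusted p 0.96). The interval ran from -0.13 to 1.63, and Sirt3 was not called. Of all genes tested, 5.15% were higher without overlap. The groups of Nek6, Tap1 and Slc39a13, which also share exon bases with a subunit gene, overlapped. Psmd13 had 167, 151 and 163 CPM in vehicle and 149, 161 and 138 CPM with inotodiol, for a log2 difference of -0.10 ± 0.13. The strand setting of the counting is not given in the sources used here, and without it reads of the shared bases cannot be told apart.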
